A study of Homo sapiens with 12 samples.

Results

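The comparison is between 2 human carcinoma lines before any silencing of MUC1: DU-145, a castration-resistant prostate cancer line, and BT-549, a triple-negative breast cancer line. Chromatin accessibility was measured by ATAC-seq, in which a transposase inserts sequencing adapters preferentially into open DNA. Of the 12 libraries of the series, the 6 used for the comparison were the 3 DU-145 vehicle and the 3 BT-549 vehicle libraries, and the other 6 came from the same lines treated with doxycycline (DOX). All of these cells, the vehicle controls included, carried a DOX-inducible MUC1 shRNA (tet-MUC1shRNA). The vehicle was 0.1% DMSO, although 1 label field calls the same cells untreated. DU-145 was grown in RPMI medium with 10% FBS and BT-549 in the same medium with 10 ug/ml insulin added and, per the study's methods, penicillin and streptomycin, so the line and these additions cannot be told apart. Each cancer type was represented by 1 line, and the differences below are differences between these lines. The 3 libraries per line are described as biologically independent replicates. Each line had its own table of coverage in 100-bp bins inside peak regions, and 31661 of the 79177 regions in the DU-145 table had a bin with the same position in the BT-549 table. For each of these 31661 regions the shared bin with the highest mean was compared, whatever its difference between the lines.

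Accessible promoters mark genes that can be transcribed, while accessible sites far from a gene start are often enhancers, and these distal sites differ between cell types far more than promoters do. Luminal prostate and breast cells are both glandular epithelia and share a program of junction proteins, keratins and pioneer factors such as FOXA1 and GATA3. BT-549 is usually classed with the mesenchymal triple-negative lines, whereas DU-145 keeps epithelial junctions.

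The sums over the 321392 shared bins were 10402878, 17820670 and 9164344 for vehicle DU-145 and 11124331, 9576831 and 7435959 for vehicle BT-549. Values below are scaled coverage, which is the fragment coverage of a bin after each library was brought to the same sum over the shared bins. Across the better covered regions, Pearson's r of log2 values was 0.967 to 0.974 between DU-145 libraries, 0.944 to 0.96 between BT-549 libraries and 0.383 to 0.402 between lines. The libraries of the lines also differed in shape, since the 95th percentile of shared bins was 7.38 to 8.57 times the median in DU-145 and 4.86 to 4.94 times in BT-549. The identity of the lines was checked at defining markers. CDH1, encoding E-cadherin, was present in the DU-145 table only, with MACS fold enrichments of 13.8, 17.9 and 16 against 3.12, none and 4.39 in BT-549. EPCAM, an epithelial adhesion molecule, had enrichments of 43.5, 51.3 and 46.8 in DU-145 and 3.47, 7.12 and 3.51 in BT-549. CDH2, encoding N-cadherin, had peaks in 0 of 3 DU-145 and 3 of 3 BT-549 libraries. Defining markers of the labelled tissues were mostly closed. No peak was found at KLK3 and HOXB13 (prostate) or TFF1 (estrogen-responsive breast) in any of the 6 libraries. ESR1, the estrogen receptor gene, had peaks in 2 DU-145 libraries and 1 BT-549 library.

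Bins at which the lines stood far apart are printed with 50 bases added on both sides (GRCh38, 200 bases in all, + strand), and 2 interferon promoters as 30-base sites. In the first 7, capitals mark exact matches on either strand to the AP-1, FOX, GATA, RUNX, TEAD, STAT or SP/KLF letters, and in the last 2 they mark paired interferon half-sites, which are GAAA, any 2 bases and GAAA again. FOXA1, GALNT10 and MELTF were higher in DU-145 and the rest in BT-549.
FOXA1 promoter (chr14:37595351-37595550, + strand): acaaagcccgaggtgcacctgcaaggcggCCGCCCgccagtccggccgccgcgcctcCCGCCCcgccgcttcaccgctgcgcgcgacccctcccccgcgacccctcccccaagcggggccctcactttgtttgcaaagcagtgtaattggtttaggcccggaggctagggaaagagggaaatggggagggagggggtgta
GALNT10 intron (chr5:154198251-154198450, + strand): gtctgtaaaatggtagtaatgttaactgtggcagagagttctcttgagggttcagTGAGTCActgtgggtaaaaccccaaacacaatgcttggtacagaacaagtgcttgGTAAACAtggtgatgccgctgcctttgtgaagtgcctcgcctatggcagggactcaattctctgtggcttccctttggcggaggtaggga
MELTF upstream (chr3:197031551-197031750, + strand): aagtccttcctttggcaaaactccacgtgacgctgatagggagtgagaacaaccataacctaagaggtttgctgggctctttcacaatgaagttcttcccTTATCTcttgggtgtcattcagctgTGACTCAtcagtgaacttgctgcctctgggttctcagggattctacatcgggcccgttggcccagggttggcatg
PDE1C intron (chr7:32163251-32163450, + strand): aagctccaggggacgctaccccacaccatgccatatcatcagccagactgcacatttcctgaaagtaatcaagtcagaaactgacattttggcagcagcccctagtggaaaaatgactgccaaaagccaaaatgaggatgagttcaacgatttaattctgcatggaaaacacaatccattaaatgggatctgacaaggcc
NMNAT2 promoter (chr1:183279351-183279550, + strand): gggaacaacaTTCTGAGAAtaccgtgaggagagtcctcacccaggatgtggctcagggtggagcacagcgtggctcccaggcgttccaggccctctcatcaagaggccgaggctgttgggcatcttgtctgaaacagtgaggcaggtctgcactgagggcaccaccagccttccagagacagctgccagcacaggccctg
CHRM3 intron (chr1:239814351-239814550, + strand): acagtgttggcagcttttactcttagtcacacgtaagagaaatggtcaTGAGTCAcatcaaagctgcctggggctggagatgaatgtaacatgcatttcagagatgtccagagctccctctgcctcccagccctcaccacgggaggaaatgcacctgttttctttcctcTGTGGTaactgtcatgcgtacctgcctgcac
BACH2 promoter (chr6:90218351-90218550, + strand): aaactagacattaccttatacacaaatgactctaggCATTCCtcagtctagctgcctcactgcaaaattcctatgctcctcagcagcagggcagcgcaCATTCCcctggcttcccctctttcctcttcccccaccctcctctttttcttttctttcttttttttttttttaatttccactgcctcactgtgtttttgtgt
ISG15 site (chr1:1013377-1013406, + strand): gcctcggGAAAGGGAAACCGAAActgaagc
OAS2 site (chr12:112978511-112978540, + strand): tagacttcagTTTCAGTTTCctggctctgg

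These windows differed in which letters they held. AP-1 stands for TGANTCA, the site of JUN and FOS dimers. SP/KLF stands for GGGCGG, a GC box, and TEAD for GGAATG. The letters of GATA factors are AGATAA, and those of STAT factors TTCNNNGAA. The windows in the GALNT10 intron and upstream of MELTF each contained 1 AP-1 match, as did the CHRM3 window, so the AP-1 letters stood on both sides of the comparison. The FOXA1 promoter held 2 SP/KLF matches in 69.5% GC. The BACH2 promoter held 2 TEAD matches, and no listed match was found in the PDE1C window. The ISG15 site contained 2 overlapping matches to the interferon half-sites and the OAS2 site contained 1. The same half-sites occurred in 2.64% of the 31661 tested windows. They were looked up after the interferon promoters had been seen to differ.

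More regions were called higher in BT-549 than in DU-145. Calls required at least a 2-fold difference and an adjusted p below 0.01 by edgeR's quasi-likelihood test. On that basis 4876 regions (15.4%) were higher in DU-145 and 7287 (23.0%) in BT-549, so 38.4% were called in either direction. The median log2 ratio of DU-145 to BT-549 was -0.123, and the 5th and 95th percentiles were -2.55 and 1.85. In bulk libraries, fewer cells open at a site and a smaller opening in each cell cannot be told apart. The 3 values of each line did not overlap in 12060 of the 12163 called regions (99.2%), against 72.0% of all tested regions. An offset fitted to the coverage trend, added after the data had been seen, brought the median to -0.00314 and the calls to 4763 and 5046.

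The calls depended on where a region lay and how much coverage it had. Within 1 kb of a transcription start site, 17.6% of 15064 regions were higher in DU-145 and 11.1% in BT-549 (median log2 ratio 0.211). In introns the order was the opposite, with 14.6% of 7146 regions higher in DU-145 and 34.6% in BT-549. Intergenic regions were similar to introns, at 12% and 34.6% of 5669. Promoter-proximal regions made up 54.3% of the regions higher in DU-145, close to the 55.1% of those not called. They made up 23.0% of those higher in BT-549 and 47.6% of all tested regions. Coverage moved with the same split. Among regions with a mean scaled coverage under 10, 0.173% were called higher in DU-145 and 46.7% in BT-549, whereas at 160 and over the shares were 20.8% and 0.975%. The part of library shape in this split was not tested.

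**Figure D1:**
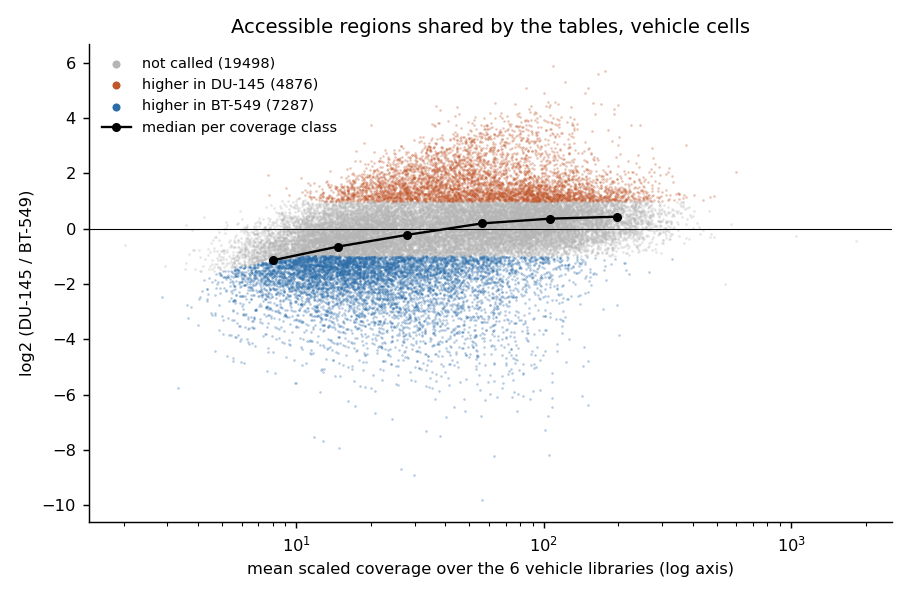
Each point is 1 of the 31661 tested regions, with its mean scaled coverage in the 6 vehicle libraries (log axis) against the fitted log2 ratio of DU-145 to BT-549 (each +1 is a doubling). Colors mark regions higher in DU-145 (4876), higher in BT-549 (7287) and not called, and the median ratio changes from -1.14 in regions under 10 to 0.435 in regions of 160 and over.

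Regions listed for 1 line only could not be tested with shared bins and were counted from the vehicle peaks. The DU-145 table had 47516 such regions, of which 17159 (36.1%) had a peak in all 3 DU-145 and in none of the BT-549 vehicle libraries. The BT-549 table had 14227, of which 11381 (80%) had a peak in all 3 BT-549 and in none of the DU-145 vehicle libraries. Most of both sets lay away from promoters, with 13.0% of the DU-145 set and 14.8% of the BT-549 set within 1 kb of a start site. Their median fold enrichment was 12.8 in DU-145 and 7.56 in BT-549. Of 19962 protein-coding genes, 446 (2.23%) had such a promoter in DU-145 and 459 (2.30%) in BT-549.

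The region with the largest ratio in DU-145 was at the promoter of LSR, which encodes the lipolysis-stimulated lipoprotein receptor of tricellular junctions. At chr19:35248501-35248600, its scaled coverage was 197, 228 and 217 in the DU-145 libraries and 3.47, 3.30 and 2.95 in the BT-549 libraries, a fitted fold of 59.6 (log2 5.90, SE 0.24, adjusted p = 7.97e-68, edgeR). The intron of GALNT10, which encodes a mucin-type O-glycosylation enzyme, followed with 391, 334 and 318 against 6.40, 5.61 and 7.39 (fold 51.6). All 3 DU-145 values were thus far above all 3 BT-549 values at both. FAM83A (promoter, fold 47.9), MELTF (1816 bp upstream, 39.4) and GALNT14 (promoter, 33.9) came next. GALNT14 encodes a relative of GALNT10, and MELTF encodes melanotransferrin, a cell surface iron-binding protein. The other 3 of the 8 largest were nearest to CCNL1, MMP16 and USP13, at 21182, 387826 and 8381 bp from their start sites, with folds of 33.8, 30.4 and 30.

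In the opposite direction the largest ratio lay in an intronic position 85341 bp from PDE1C, which encodes a calmodulin-dependent phosphodiesterase. At chr7:32163301-32163400 the DU-145 libraries had 1.28, 1.84 and 1.93 and the BT-549 libraries 204, 196 and 219, a fitted fold of 110 in favor of BT-549 (log2 -6.78, SE 0.25, adjusted p = 6.92e-75, edgeR). The promoter of NMNAT2, encoding an NAD synthesis enzyme of neurons, had 1.64, 2.77 and 1.10 against 232, 206 and 203 (fold 87.4). The DU-145 values at both rest on very few fragments, so these folds are imprecise. A site 11623 bp upstream of CHRM3, the gene of a muscarinic acetylcholine receptor, had 4.21, 1.92 and 3.99 against 212, 193 and 233 (fold 69.3). ASPN, encoding the matrix proteoglycan asporin, was the nearest gene of a further such region at 24045 bp (fold 68.2). The remaining 4 were more than 100 kb from their nearest protein-coding start site (KCTD16, MTDH, NNT and COX7C), with folds of 62.5 to 82.2.

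Epithelial genes were more accessible in DU-145. Of 39 genes of epithelial junctions and identity, 25 had a tested promoter, and 16 (64.0%) were higher in DU-145 and the other 9 were not called. The median log2 ratio was 1.28, and over all 13432 tested protein-coding promoters it was 0.303, with 18.2% higher in DU-145 and 6.58% in BT-549. F11R, encoding the tight junction molecule JAM-A, had 408, 331 and 362 in DU-145 and 18.9, 20.2 and 13.8 in BT-549 (fold 20.2, log2 4.34, SE 0.16, adjusted p = 5.54e-72). ELF3, an epithelial ETS factor, had 220, 178 and 194 against 18.4, 14.4 and 19.3 (fold 11.1, adjusted p = 1.69e-52). LLGL2, a regulator of apicobasal polarity, had 131, 148 and 164 against 12.2, 24.9 and 24.5 (fold 7.40, adjusted p = 1.48e-40). At these promoters every DU-145 library was several times above every BT-549 library. JUP, encoding plakoglobin of desmosomes and adherens junctions, had 245, 220 and 241 against 66.8, 52.1 and 43.0 (fold 4.21, adjusted p = 6.03e-37). Chosen after their values were seen, ESRP1 (epithelial splicing regulator, log2 3.50), DSP (desmoplakin, 3.31) and PKP3 (plakophilin, 2.76) were also called.

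Several epithelial genes were in the DU-145 table only. MARVELD3, a tight junction protein gene, and CRB3, a polarity gene, had peaks in DU-145 and none in BT-549, with fold enrichments of 24.2, 25.2 and 21.7 and with 27, 32.6 and 36.5. The opposite pattern was seen at 2 genes of the list, AP1M2, named after its values were seen, and EHF, an epithelial ETS factor, which had peaks only in BT-549 among the vehicle libraries (12.1, 14.7 and 10.5). GRHL2, a grainyhead factor of epithelia, illustrates a limit of shared bins: its compared bin had 4.93 in DU-145 and 7.53 in BT-549 (adjusted p = 0.216), while the peaks over its promoter had enrichments of 35.8, 42.3 and 37.1 against 5.20, 5.02 and none. Of the keratins, KRT19 (43.5, 67.2 and 43.9) and KRT16 (11, 11.8 and 10.3) had vehicle peaks only in DU-145, and the 3 tested promoters, KRT7, KRT80 and KRT15, had log2 ratios of 0.75, 0.70 and -0.55 that were not called. Counting all tested regions nearest to an epithelial gene within 100 kb, 46.5% of 71 were higher in DU-145 and 16.9% in BT-549, against 15.8% and 21.1% of all 28957 such regions. The number called higher at the 25 promoters was 13 to 17 under 18 other settings.

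Of the mesenchymal promoters called, more were higher in BT-549 than in DU-145. Of 24 tested promoters of EMT factors and mesenchymal markers, 4 (16.7%) were higher in BT-549, 2 (8.33%) in DU-145 and 18 were not called. Over all protein-coding promoters the shares were 6.58% in BT-549 and 18.2% in DU-145, with a median log2 ratio of 0.303. The list had a median of -0.34 (0.07 with the median of neighboring regions removed). Under the other settings 3 to 7 of its promoters were called higher in BT-549 and 1 to 4 in DU-145. FN1, encoding the matrix protein fibronectin, had 14.4, 19.3 and 19.3 in DU-145 and 62.0, 56.8 and 72.0 in BT-549 (fold 3.51 in favor of BT-549, log2 -1.81, SE 0.19, adjusted p = 2.46e-17). ZEB2, a repressor of E-cadherin, had 23.9, 18.2 and 19.2 against 59.2, 61.1 and 49.0 (log2 -1.50, adjusted p = 8.39e-13). SPARC, a secreted matrix protein gene, had 20.7, 20.1 and 16.4 against 59.5, 44 and 55.7 (log2 -1.45), and lost its call with the median of neighboring regions removed (-0.9). The groups did not overlap at any of these promoters. TAGLN, encoding the actin-binding protein transgelin, was called as well (log2 -1.49). VIM, encoding vimentin, had 121, 134 and 106 against 104, 109 and 120 (log2 0.16, adjusted p = 0.260), with overlapping groups. ZEB1 had 23.3, 29.2 and 25.5 against 33.4, 38.9 and 42.6 (log2 -0.50, adjusted p = 0.0259), short of both limits. Both called exceptions were strong in DU-145: FAP, a fibroblast activation protease gene, had 142, 163 and 184 against 32.3, 14.5 and 19.5 (log2 2.82), and AXL, a receptor kinase gene, was at 103 ± 7.03 against 42.9 ± 6.82 (SD, n = 3 each, log2 1.27). The AXL call was lost with the median of neighboring regions removed (0.68) and with the mean over all shared bins of a region in place of the highest bin (region means, 0.75).

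Other mesenchymal genes were present in the BT-549 table only. CDH2 had enrichments of 27, 29.3 and 25.9 in BT-549, TWIST1, a bHLH factor of EMT, 29.1, 35.6 and 21.9, and CDH11, a mesenchymal cadherin gene, 26, 34.8 and 21.9, with no vehicle peak in DU-145. THY1, a fibroblast surface marker, had 14.2, 12.1 and 11.4. Of tested regions within 100 kb of a gene of this list, 34.8% of 115 were higher in BT-549 and 6.09% in DU-145. Of all 28957 regions within 100 kb of a protein-coding start site, 21.1% and 15.8% were. Collagens were divided in the same way. Of 14 tested collagen promoters, which lie in 13 regions, 5 (35.7%) were higher in BT-549 and 2 (14.3%) in DU-145. Over all protein-coding promoters the shares were 6.58% and 18.2%. The collagen median log2 was -0.577, with 3 to 6 and 0 to 2 called under the other settings. COL16A1, a fibril-associated collagen gene, had 4.65, 6.83 and 4.46 in DU-145 and 52.4, 58.4 and 55.6 in BT-549 (fold 9.73, log2 -3.28, SE 0.25, adjusted p = 2.46e-28). COL1A2, a chain of collagen I, had 10.3, 8.22 and 6.54 against 35.5, 44.6 and 50.1 (log2 -2.35). COL4A1 and COL4A2, basement membrane collagens transcribed from a common promoter, shared 1 region at log2 -1.49, a call lost when the chromosome's median was removed (-0.9). COL6A2 (log2 1.23) and COL13A1 (1.37) were higher in DU-145. COL6A2 lost its call under 5 settings, such as removal of the chromosome median (0.69), and COL13A1 under 2, with region means (0.93) and limma-trend (0.9). COL5A2, COL4A5 and COL4A6 had vehicle peaks only in BT-549, and COL5A3 only in DU-145.

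**Figure D2:**
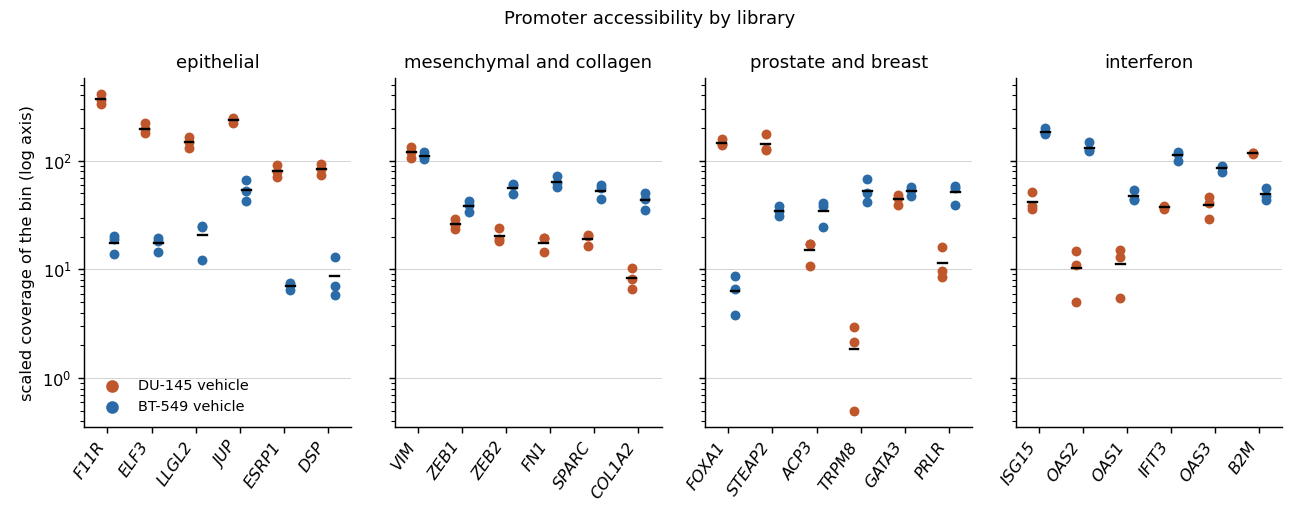
Scaled coverage (log axis) of 24 promoters in each of the 3 DU-145 and 3 BT-549 vehicle libraries, 1 point per library with a dash at the mean, in panels for epithelial, mesenchymal and collagen, prostate and breast, and interferon genes. At F11R the DU-145 points lie between 331 and 408 and the BT-549 points between 13.8 and 20.2, whereas at VIM the points of both lines lie between 104 and 134.

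Lineage genes of prostate and breast did not separate the lines by tissue. Of 14 tested promoters of prostate lineage genes, 3 (21.4%) were higher in DU-145 and 2 (14.3%) in BT-549 (median log2 ratio 0.142). Over the other settings 2 to 4 and 1 to 4 were called, with medians from -0.2 to 0.31. Of all protein-coding promoters, 18.2% were higher in DU-145 and 6.58% in BT-549. FOXA1, the pioneer factor of luminal prostate and breast cells, had 157, 139 and 143 in DU-145 and 6.64, 3.84 and 8.71 in BT-549 (fold 23, log2 4.52, SE 0.22, adjusted p = 6.07e-53). With region means the FOXA1 ratio was 0.8 and the call was lost, and with the median of neighboring regions removed it was 3.07. No tested region had FOXA1 as its nearest protein-coding gene, so this bin lay nearer to the start site of another. STEAP2, a prostate metalloreductase gene, had 177, 127 and 125 against 38.7, 34.1 and 31.0 (log2 2.02, adjusted p = 1.21e-28). TRPM8, a cold-sensing channel gene also expressed in prostate, was higher in the breast line, with 2.94, 2.17 and 0.5 in DU-145 and 50.8, 67.3 and 41.3 in BT-549 (log2 -4.64, SE 0.32, adjusted p = 1.33e-33). ACP3, encoding prostatic acid phosphatase, was likewise higher in BT-549 (log2 -1.18, and -0.73 to -0.99 under 5 settings that ended the call). NDRG1, a stress-responsive gene, was at log2 1.05 (0.64 with the coverage offset, 0.93 without DU-145 replicate 1 and 0.97 without BT-549 replicate 2, each of which ended the call). KLK4 and FOXA2 had vehicle peaks in DU-145 only, the latter at 40.8, 48.4 and 24.0.

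Of 13 tested breast lineage promoters, 2 (15.4%) were higher in DU-145 and 1 (7.69%) in BT-549 (0 to 3 and 1 or 2 under the other settings). Of all protein-coding promoters, 18.2% and 6.58% were. GATA3, the luminal breast factor, had 48.0, 38.9 and 45.1 in DU-145 and 47.5, 54.3 and 57.7 in BT-549 (log2 -0.29, adjusted p = 0.125), and the groups overlapped. PRLR, the prolactin receptor gene, had 16.2, 9.60 and 8.56 against 56.4, 58.7 and 38.8 (log2 -2.22, adjusted p = 9.37e-19). BCL11A, a zinc finger factor of mammary progenitors, was higher in the prostate line with 45.1, 52.6 and 52.5 against 9.34, 7.65 and 14.0 (log2 2.26), although not with region means (0.71). TFAP2A, an AP-2 factor gene, had a log2 ratio of 1.05 and 0.66 with the coverage offset, which ended the call, as did leaving out BT-549 replicate 1 (0.98) or 2 (0.99). ID4, a bHLH inhibitor of basal mammary cells, had vehicle peaks in BT-549 only (44.4, 49.8 and 43.9).

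HOX genes, the homeobox factors of body axis position, were called in both directions. Of 26 tested HOX promoters in 22 regions, 7 (26.9%) were higher in DU-145 and 3 (11.5%) in BT-549. Over all protein-coding promoters the shares were 18.2% and 6.58%. The HOX counts were 2 and 3 with region means, 5 and 0 with limma-trend and 9 and 1 with the coverage offset. HOXD1 had 78.9, 80.7 and 72.8 in DU-145 and 12.5, 11.9 and 12.5 in BT-549 (fold 6.25, log2 2.64, SE 0.21, adjusted p = 1.47e-27), and HOXA5 had 105, 100 and 102 against 28.8, 26.6 and 20.2 (log2 1.98). HOXC9 (1.58) was higher in DU-145 too, and the calls of HOXA5 and HOXC9 were lost with region means (0.82 and 0.51). HOXB5 (log2 -1.87) and HOXC5 (-1.38) were higher in BT-549, in clusters that also held promoters higher in DU-145. HOXB5 lost its call with limma-trend (-0.96) and HOXC5 under 3 settings (-0.57 to -0.87). HOXD8 was called at -1.23 with an adjusted p of 0.00894 from values of at most 17.6, and the call was lost under 10 settings, including the omission of DU-145 replicate 1 (-0.98) or 3 (-1.28) or of BT-549 replicate 2 (-1.25) or 3 (-0.84). With the coverage offset its ratio was 0.24. HOXA4, HOXA7, HOXB4 and HOXC12 had vehicle peaks only in BT-549.

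Of factors of other lineages, 3 of 17 tested promoters (17.6%) were higher in DU-145 and 2 (11.8%) in BT-549. Over all protein-coding promoters the shares were 18.2% and 6.58%. The neighbors PAX9, a factor of pharyngeal endoderm, and NKX2-1, a factor of lung and thyroid, were both higher in DU-145. PAX9 had 354, 313 and 347 against 30, 39.6 and 42.8 (fold 9.05, log2 3.18, adjusted p = 1.26e-59), and NKX2-1 had 107, 132 and 150 against 16.5, 12.8 and 16 (log2 3.09). With the median of neighboring regions removed these log2 ratios were 1.73 and 1.64, so part of both was shared with the surrounding regions. Runt factors went both ways: RUNX3 was at log2 1.72, higher in DU-145, and RUNX2, the osteoblast factor, at -1.61, higher in BT-549, as was the cardiac factor NKX2-5 (-1.82). SOX17 had vehicle peaks in DU-145 only, and TAL1 and EN1 in BT-549 only. Of 12 tested neuroendocrine and neural promoters, 4 (33.3%) were higher in BT-549 and 2 (16.7%) in DU-145, against 6.58% and 18.2% of all. Their median log2 was -0.43, with 2 to 5 and 1 or 2 called under the other settings. SCG2, a granin of secretory vesicles, had 6.61, 5.84 and 6.17 in DU-145 and 25.6, 35.2 and 30.3 in BT-549 (log2 -2.28), and NCAM1, a neural adhesion gene, had 9.52, 13.7 and 11.3 against 41.8, 30.1 and 48.4 (log2 -1.71). POU4F1 (-1.15) and PROX1 (-1.04) lost their calls under 4 and 6 settings, for example with the chromosome median removed (-0.56 and -0.65), POU4F1 without DU-145 replicate 2 (-0.99) and PROX1 without BT-549 replicate 1 (-0.94). PEG10, an imprinted gene raised in neuroendocrine prostate cancer, was higher in DU-145 at a bin 1505 bp from its start site, with 516, 429 and 464 against 95, 87.7 and 96.6 (fold 5.02, log2 2.33). That bin lay nearer to the start site of another protein-coding gene, and the 1 tested region nearest to PEG10 was not called. SOX2 was higher in DU-145 as well (log2 1.2, and 0.71 with limma-trend, which ended the call). CHGB, another granin gene, had enrichments of 29.5, 25.5 and 19.3 and had vehicle peaks in BT-549 only.

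Growth factor receptor promoters were accessible in both lines, with 31 of 33 tested. Of these, 8 (25.8%) were higher in DU-145 and 3 (9.68%) in BT-549, against 18.2% and 6.58% of all protein-coding promoters. The median log2 was 0.363, and 0.03 with the GC trend removed. Region means gave 3 and 3, and limma-trend or removal of the chromosome median gave 7 and 0. OSMR, the oncostatin M receptor gene, had 267, 236 and 253 in DU-145 and 109, 95.1 and 85.7 in BT-549 (log2 1.36, SE 0.12, adjusted p = 2.38e-23), which the coverage offset took to 0.98. MERTK, a relative of AXL, was at log2 1.59, FGFR4 at 1.58 and IGF1R at 1.37. FGFR4 lost its call with region means (0.72) and IGF1R under 3 settings (0.57 to 0.82). ROR1, a WNT5A receptor gene, had 58.2, 57.5 and 56.6 against 118, 117 and 124 (log2 -1.04), so close to a 2-fold difference that 6 settings ended the call. BMPR1B, a BMP receptor gene (-1.18), was also higher in BT-549, with its call lost under 2 settings (-0.85 and -0.93). NTRK3 had vehicle peaks in BT-549 only. At the promoters of AP-1 and TEAD factors, 19 of 22 were not called (median log2 0.107). Over all protein-coding promoters, 10107 of 13432 were not called (median log2 0.303). BACH2, a lymphoid repressor that binds AP-1-like elements, had the largest ratio of the 3 called, with 8.07, 10.4 and 6.91 in DU-145 and 173, 183 and 180 in BT-549 (fold 19.5, log2 -4.28, SE 0.19, adjusted p = 6.32e-62). CCN1, a secreted YAP and TEAD target, had 20.1, 22.8 and 32.1 against 122, 114 and 131 at a bin 3088 bp from its start site (log2 -2.32). FOS was at log2 1.09 and lost its call under 6 settings, including the omission of BT-549 vehicle replicate 3 (0.97). ANKRD1, another TEAD target, had vehicle peaks in DU-145 only (58.9, 55.8 and 40.5).

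A subset of interferon-stimulated genes was more accessible in BT-549. Of 24 tested promoters of interferon and antigen presentation genes, in 23 regions, 7 (29.2%) were higher in BT-549, 1 in DU-145 and 16 were not called, with a median log2 ratio of -0.325. Over the other settings 4 to 9 were higher in BT-549 and 0 or 1 in DU-145, and the median was -0.58 to -0.1. Of all protein-coding promoters, 6.58% were higher in BT-549 and 18.2% in DU-145. OAS2, an activator of RNase L, had 5.07, 11 and 14.9 in DU-145 and 147, 126 and 122 in BT-549 (fold 12.5, log2 -3.64, SE 0.19, adjusted p = 2.63e-49). ISG15, a ubiquitin-like modifier, had 36.0, 37.9 and 51.5 against 175, 199 and 179 (fold 4.51, log2 -2.17, adjusted p = 5.17e-38). OAS1 had 15.1, 12.9 and 5.42 against 43.1, 54.1 and 44.3 (log2 -2.0), in the same gene cluster as OAS2. IFIT3, which restrains viral RNA translation with its family, had 36.2, 37.7 and 38 against 120, 115 and 100 (log2 -1.59), and -0.8 after removal of the GC trend, which ended the call. Every BT-549 library was above every DU-145 library at these 4 promoters. Chosen after their values were seen, OAS3 (log2 -1.12), IFIT2 (-1.04) and CD274, encoding PD-L1 (-1.03), complete the 7. The only call in the other direction was B2M, encoding the light chain of MHC class I, had 116, 117 and 117 in DU-145 and 47.6, 56.2 and 43.4 in BT-549 (log2 1.23), a call that 4 settings ended (0.27 to 0.95). IFI44 and IFI44L had vehicle peaks in BT-549 only, at 21.1, 25.5 and 20.2 and at 24.3, 28.5 and 16.2. Around the genes of this list, 52.9% of 70 regions within 100 kb were higher in BT-549 and 7.14% in DU-145. Around all protein-coding genes, 21.1% and 15.8% of 28957 such regions were. The paired half-sites printed above were found in 4 of the 7 promoters higher in BT-549 and in 5 of the 16 not called. The 1 promoter higher in DU-145, that of B2M, held them too. Over all regions they were in 4.35% of those higher in BT-549, 1.56% of those higher in DU-145 and 2.28% of those not called.

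Housekeeping and tumor suppressor promoters give the background of the comparison. Of 74 tested ribosomal protein promoters, 9 (12.2%) were higher in DU-145 and 2 (2.70%) in BT-549, or 5 to 13 and 0 to 3 under the other settings. Of all protein-coding promoters, 18.2% and 6.58% were. The median log2 ratio of the ribosomal promoters was 0.326, close to the 0.303 of all protein-coding promoters. RPS29 had 471, 418 and 433 in DU-145 against 136, 153 and 134 in BT-549 (log2 1.64), and 0.32 after removal of the median of neighboring regions, which ended the call. RPS27A (1.71), RPS27 (1.59) and RPS7 (1.55) were higher in DU-145, and RPL10 on chromosome X (-1.13) and RPS18 (-1.2) in BT-549. The bins of RPS27A and RPS18 lay nearer to the start site of another protein-coding gene. Removal of the neighbors' median ended the calls of RPS27A (0.84), RPL10 (-0.07) and RPS18 (-1.0), as did leaving out DU-145 replicate 1 for RPL10 (-0.98). Of 30 tested tumor suppressor and cell cycle promoters, 7 (23.3%) were higher in DU-145 and 1 (3.33%) in BT-549, against 18.2% and 6.58% of all. The counts of this list were 2 and 2 with the coverage offset, 4 and 0 with the chromosome or neighbors' median removed, and 3 and 1 with region means. KEAP1, encoding the adaptor that degrades NRF2, had 135, 148 and 104 against 42.2, 34.2 and 34.6 (fold 3.51, log2 1.81, adjusted p = 7.29e-25). MYC was higher in BT-549, with 86.7, 91.0 and 81.5 against 173, 188 and 198 (log2 -1.08), and 5 settings brought it under 2-fold, to -0.24 at the least. Markers of blood and endothelial cells were largely closed, since 14 of 18 genes were in neither table and 2 were tested. CD14 was at 45.7 in DU-145 and 17.6 in BT-549, CLDN5 at 5.92 and 16.2, and CD79A had vehicle peaks in DU-145 only (14.3, 16.7 and 12).

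**Figure D3:**
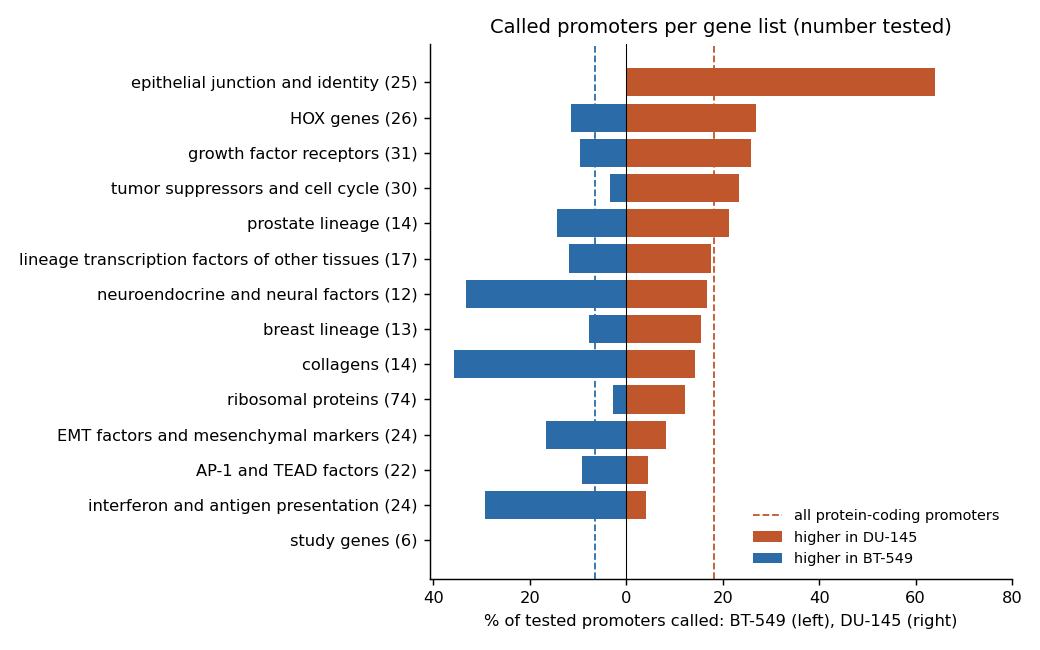
For each gene list with at least 6 tested promoters (number tested in brackets), bars give the percent of promoters called higher in DU-145 (to the right of 0) and in BT-549 (to the left), with dashed lines at the values of all 13432 tested protein-coding promoters (18.2% and 6.58%). The epithelial list lies at 64.0% higher in DU-145 and the interferon list at 29.2% higher in BT-549.

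The genes that the study centers on differed less than 2-fold at their promoters in vehicle cells. Most promoters were likewise not called, 10107 of all 13432 tested protein-coding ones. MUC1, the target of the inducible shRNA, had 142, 137 and 130 in DU-145 and 201, 268 and 200 in BT-549 (log2 -0.71, SE 0.11, adjusted p = 6.43e-09), and the groups did not overlap. With the coverage offset its ratio was -1.09, past the limit. ARID1A, a subunit of the BAF remodeling complex, had 70.1, 76.7 and 84.3 against 122, 124 and 102 (log2 -0.61, adjusted p = 1.57e-05). NOTCH1 had 91.2, 84.8 and 90.8 against 57.1, 74.4 and 65.4 (log2 0.43, adjusted p = 0.00480). The immediate early gene EGR1 had 346, 329 and 384 against 307, 290 and 302 (log2 0.23, adjusted p = 0.0346), and the AP-1 gene JUN 230, 204 and 190 against 222, 220 and 239 (log2 -0.12, adjusted p = 0.315). LY6E, an interferon-inducible surface protein gene, had 66.9, 85.5 and 83.3 against 98.5, 106 and 85.1 (log2 -0.29, adjusted p = 0.05). JUN and LY6E overlapped between the lines, and the sign at EGR1, JUN and LY6E was turned by at least 1 other setting. Beyond the promoters, 27 tested regions were nearest to these genes within 100 kb. Of these, 4 (14.8%) were higher in DU-145 and 7 (25.9%) in BT-549, against 15.8% and 21.1% of all 28957 such regions. Near LY6E 1 and 3 of 7 regions were called in these directions, and near JUN 1 and 3 of 9.

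The line difference had a regional component along chromosomes. Median log2 ratios of the 23 chromosomes ran from -0.708 on chromosome 8 to 0.801 on chromosome 15. On chromosome 15, 39.1% of 762 regions were higher in DU-145 and 9.32% in BT-549, and on chromosome 17 34.0% and 11.8% of 1225 (median 0.579). Chromosomes 8, 13 and X were on the opposite side, with 38.3%, 34.4% and 30.6% of regions higher in BT-549 and medians of -0.708, -0.588 and -0.568. The chromosome 15 median was 0.973 within 1 kb of start sites and 0.194 beyond 3 kb, and that of chromosome 8 was -0.478 and -0.886. DNA copy number was not measured, so it and accessibility cannot be told apart at this scale. Among 1332 windows of 1 Mb with at least 10 tested regions, none had 80% of its regions higher in DU-145 and 4 had as many higher in BT-549. A window on chromosome 5 around PRR16 had 9 of 11 regions higher in BT-549. That with the highest share in DU-145 lay on chromosome 22, around DGCR8, a microRNA processing gene, with 17 of 23. A window on chromosome 18 that holds the desmosomal cadherins DSC2, DSC3, DSG1, DSG2 and DSG3 had 9 of 13 regions higher in DU-145 and 1 in BT-549.

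**Figure D4:**
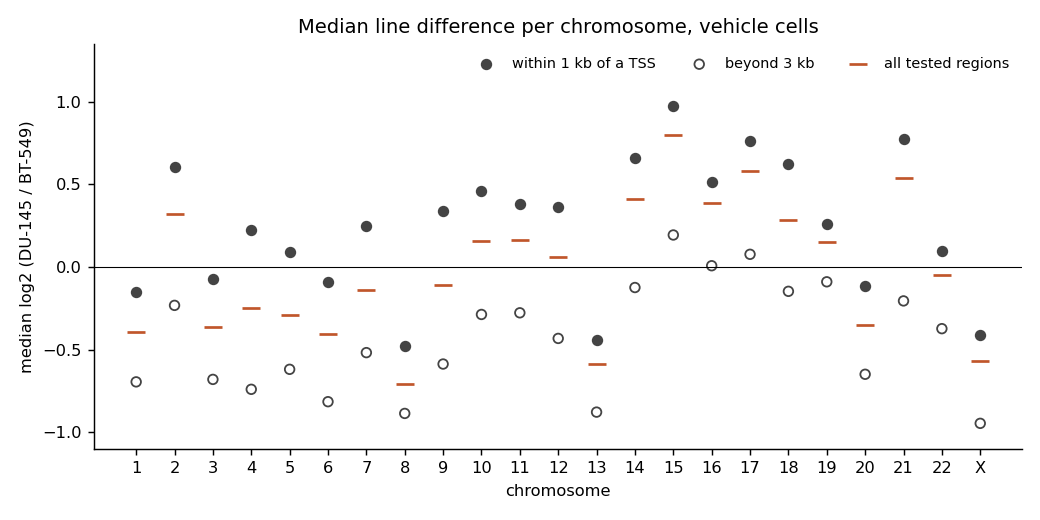
Median log2 ratio of DU-145 to BT-549 in vehicle cells for each of 23 chromosomes, over all tested regions (dashes), regions within 1 kb of a start site (filled points) and regions beyond 3 kb (open points). The medians over all regions run from -0.708 (chromosome 8) to 0.801 (chromosome 15), and the points within 1 kb lie above those beyond 3 kb.

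Short motif matches in the 200-base windows differed between the called sets, as a description over regions. Beyond 3 kb from a start site, an AP-1 match was present in 48.9% of 1797 windows higher in DU-145, 36.7% of 4643 higher in BT-549 and 32.9% of 6997 not called, against 36.3% of all 13437. The FOX letters, TGTTTAC, occurred in 5.12%, 2.30% and 3.02%, and the E-box CAGGTG, which ZEB and SNAI factors bind, in 17.2%, 9.67% and 17.2%. TEAD letters were at 18.6%, 19.4% and 17.3% and the RUNX letters TGTGGT at 19.1%, 20.2% and 17.1%. Of the remaining letters searched on both strands, NFY (CCAAT) was at 21.8%, 23.3% and 22.6%, the bHLH E-box (CAGCTG) at 15.4%, 12.4% and 14.6%, and GATA at 9.79%, 7.52% and 7.19%. STAT letters were at 5.95%, 7.93% and 6.62%, those of HOX factors (CAATAAA) at 3.34%, 3.55% and 2.62%, and those of ETS factors (CCGGAAG) at 2.28%, 0.926% and 2.0%. SOX (ACAATGG), CEBP (TTGCNNCAA) and GRHL letters (AACCNGTT) were rare, with SOX at 1.78%, 2.24% and 1.92%, CEBP at 1.89%, 2.0% and 1.77%, and GRHL at 1.22%, 1.1% and 1.1%. POU letters (ATGCAAAT) were at 0.501%, 0.84% and 0.858%. Overlaps between motifs were kept, so 1 stretch can count for more than 1 name. Base composition moved with the sets, the median GC content being 49.5%, 46.0% and 49.5%. Within windows of 45 to 55% GC, AP-1 letters were still in 56.2%, 35.6% and 37.1%, FOX letters in 5.26%, 2.03% and 2.79%, and CAGGTG in 18.3%, 10.3% and 16.9%. Within 1 kb of a start site AP-1 letters were rarer, at 8.50%, 12.8% and 5.24%, and there the set higher in BT-549 had the larger share. At these promoters the SP/KLF letters were in 59.9% of windows higher in DU-145 and 32.8% of those higher in BT-549, whose median GC contents were 67.5% and 60.5%.

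**Figure D5:**
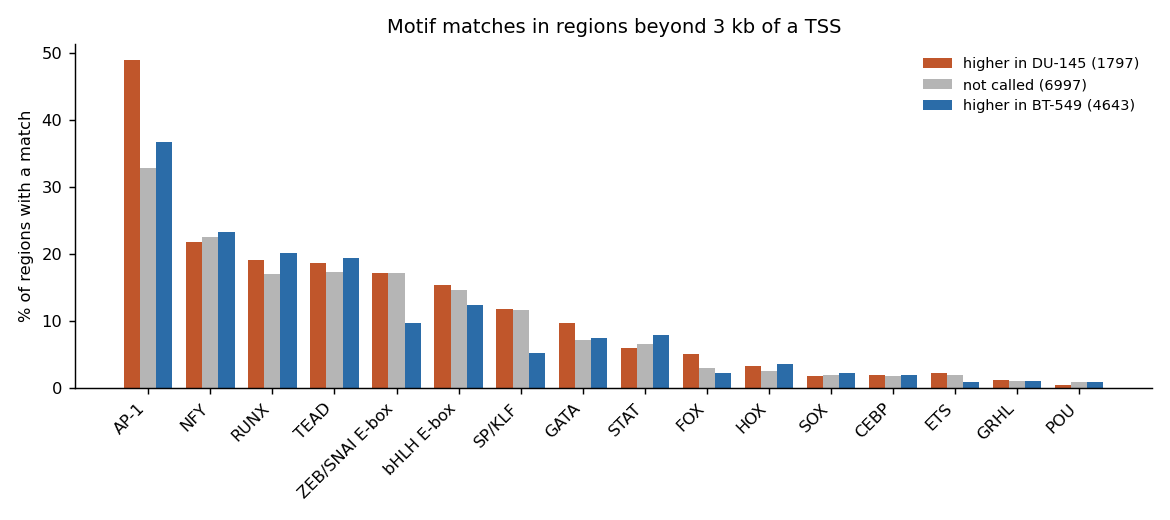
Bars give the percent of 200-base windows beyond 3 kb from a start site that hold each motif, for regions higher in DU-145 (1797), higher in BT-549 (4643) and not called (6997). AP-1 stands at 48.9%, 36.7% and 32.9% and FOX at 5.12%, 2.30% and 3.02%.

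The same lines were compared again in the DOX libraries, which are other libraries of the same cells after MUC1 silencing was induced. The shared-bin sums of the BT-549 DOX libraries were 2145081 to 2758522, well under those of the vehicle libraries, so the test there had less depth. Of 31645 regions tested in DOX, 5408 (17.1%) were called higher in DU-145 and 2765 (8.74%) in BT-549. Of the 4876 regions higher in DU-145 in vehicle, 97.0% had the same sign and 61.9% were called the same way in DOX, with medians of 1.5 and 1.39. Of the 7287 higher in BT-549, 74.1% had the same sign, 27% were called the same way and 230 were called the opposite way, and the median went from -1.72 to -0.666. The interaction test over all 12 libraries found 4042 regions (12.8%) whose line difference moved toward DU-145 and 820 (2.59%) that moved toward BT-549. Among the lists, 11 of 25 epithelial promoters were called higher in DU-145 and 1 in BT-549 in DOX (median log2 1.31). At the 24 interferon promoters the median log2 ratio was 0.12 in DOX, and 1 was called, in favor of DU-145. Of these promoters 7 had a called interaction toward DU-145 and 1 toward BT-549. Of all 13432 tested protein-coding promoters, 1463 were called higher in DU-145 and 954 in BT-549 in DOX (median log2 0.03). An interaction was called toward DU-145 at 201 of them and toward BT-549 at 533. PAX9 (log2 3.18 in vehicle and 3.10 in DOX), HOXD1 (2.64 and 2.57), ELF3 (3.47 and 3.31) and BACH2 (-4.28 and -3.80) had nearly the same ratio in both sets of libraries. OAS2 went from -3.64 to -1.0 and TRPM8 from -4.64 to -0.83. The part of the BT-549 depth gap in these differences was not tested.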

How the data were processed

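ATAC-seq libraries of DU-145 and BT-549 cells carrying tet-MUC1shRNA were used as deposited. Per the submitters' processing notes, reads were handled with BWA, Picard and MACS (MACS2 2.2.7.1 and MACS3 are both listed) on hg38. The authors deposited, for each line, estimated counts per 100-bp bin, the mean fragment coverage inside peak regions, not scaled for depth, and narrowPeak files with a fold enrichment (ratio over background) and −log10 p- and q-values per peak. Bin values were not whole and were rounded. From these, 1 shared bin per DU-145 region was fitted with edgeR 4.0.16 (robust quasi-likelihood test, Benjamini-Hochberg adjustment over all regions, library size the sum over shared bins, minimum total 10). A call needed a fold change of at least 2 and adjusted p under 0.01. Every adjusted p in the text comes from this test. Fitted folds use edgeR's prior count and differ slightly from ratios of means. A promoter was the tested region overlapping 1 kb on either side of any GENCODE 44 start site of a gene (the highest if several), and the compared bin may lie farther away. Motifs and GC were read from GRCh38 over 200 bases. Regions in 1 table were counted by overlap with vehicle peaks.

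Named promoters were up to 4 per list and direction with the smallest adjusted p, up to 4 members in 1 table only, and 15 genes named outright; some of these genes are not reported here. Named regions were the 8 with the largest change per direction, with a mean of at least 20 in the higher line, at least 1 in each library of the lower line and 1 per gene. The 16 gene lists, the members and the motifs were chosen with earlier results of these data known. The interferon half-sites, the coverage offset (3 loess iterations) and the gene families were added later. The fit was also run on simulated data, but few regions differed there and the lines had the same library shape, unlike here. That run therefore does not show how the fit behaves on these libraries. Alternatives were other scalings, filters and tools, chromosome, neighborhood (101 regions) and GC corrections, and omission of each replicate. Counting error alone limits single bins, and values under 3 rest on few fragments.

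The replicate numbers of the lines did not pair the libraries (r of deviations 0.018, -0.004 and -0.029). Nothing was left out of the 6 vehicle libraries.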

Additional observations from a re-analysis of the deposited data

Results flagged for a closer look

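At 14 of the 79 named promoters, the difference between the lines was not the same in vehicle and in DOX libraries, by edgeR's quasi-likelihood test of the interaction of line and DOX over 12 libraries (a change of at least 2-fold and adjusted p under 0.01). These interactions are on the log2 scale as DOX minus vehicle, so a positive value means a move toward DU-145. The 9 that moved toward DU-145 had been higher in BT-549 in vehicle. TRPM8 moved by 3.8 (-4.64 in vehicle, -0.83 in DOX, adjusted p = 1.44e-08), OAS2 by 2.64 (-3.64 and -1.0, adjusted p = 3.03e-07) and COL16A1 by 2.32 (-3.28 and -0.96, adjusted p = 1.03e-05). PRLR moved by 2.2 (-2.22 and -0.01), IFIT3 by 1.97 (-1.59 and 0.38), ISG15 by 1.96 (-2.17 and -0.21, adjusted p = 5.81e-09) and CCN1 by 1.79 (-2.32 and -0.53). COL4A1 and COL4A2, which share a region, moved by 1.26 (-1.49 and -0.23).

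The 5 that moved toward BT-549 had been higher in DU-145. F11R moved by -1.68 (4.34 in vehicle, 2.66 in DOX, adjusted p = 1.30e-04), HOXC9 by -1.29 (1.58 and 0.29), HOXA5 by -1.06 (1.98 and 0.92, adjusted p = 0.00824), RPS27 by -1.06 (1.59 and 0.53) and B2M by -1.05 (1.23 and 0.18). The ratio in DOX was nearer to 0 than in vehicle at these 14 promoters, which had been chosen for their vehicle difference. The shared-bin sums of the BT-549 DOX libraries were 2145081 to 2758522, against 7435959 to 11124331 in BT-549 vehicle. The part of this depth gap was not tested. Over all 31661 regions the interaction was called in 12.8% toward DU-145 and 2.59% toward BT-549, with a median of 0.210. Among the 13432 tested protein-coding promoters it was called in 201 and 533, with a median of -0.27.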

How the results depend on the processing

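The count of regions higher in DU-145 (4876) and in BT-549 (7287) stayed within 1.5 times under scaling, filter, GC, chromosome, neighborhood and DESeq2 alternatives. The exceptions were region means (3234 in DU-145), limma-trend (3580 in BT-549), all shared bins in place of 1 per region (32166 and 85274 of 321378 bins), a limit of adjusted p under 0.05 with no fold (10256 and 11921) and a fold of at least 4 (1306 and 2721). Omitting 1 library at a time gave 4697 to 5117 and 6662 to 7207. The share of calls in favor of DU-145 was 40.1%, and 48.6% with the coverage offset, 49.9% with limma-trend and 28.8% with region means. With the replicate number as a block the counts were 4936 and 7244, and no named call changed, though the numbers did not pair the libraries.

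Of 1421 ratios of the 79 named promoters, 1293 kept sign and call, 116 (38 genes) lost the call, 1 gained it (MUC1) and 11 changed sign: CD14 to -0.20 with region means, EGR1 to -0.07 (GC removed) and -0.21 (coverage offset), HOXD8 to 0.24 and VIM to -0.17 (coverage offset), VIM to -0.19 (GC removed), JUN to 0.27 and 0.34 and LY6E to 0.42 and 0.49 (chromosome median and neighbors' median removed), and ZEB1 to 0.05 (neighbors' median). HOXD8 could not be tested with a minimum total of 60. Of these, CD14 and HOXD8 had been called. The cause was not tested. One line per cancer type, the additions to the BT-549 medium and unmeasured DNA copy number limit what the line difference can be ascribed to, and few fragments in the lower line limit the largest folds. Regions in 1 table with vehicle peaks in that line and none in the other numbered 15726 to 22625 in DU-145 and 9490 to 12185 in BT-549 under other peak limits.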

Other observations

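Gene families among promoters with vehicle peaks in 1 line only were looked up after the values had been seen. All 6 SLITRK genes, which encode synaptic adhesion proteins, had peaks in all 3 BT-549 and in none of the DU-145 vehicle libraries. The same held for 6 of 12 PCDH genes (PCDH7, PCDH9, PCDH10, PCDH17, PCDH18 and PCDH20, non-clustered protocadherins), for 4 of 9 EPHA receptor genes (EPHA3, EPHA5, EPHA6 and EPHA7) and for 4 of 22 FGF genes (FGF5, FGF10, FGF13 and FGF17). FGF genes also had 5 of 10 tested promoters higher in BT-549 and 0 in DU-145, against 6.58% and 18.2% of all tested protein-coding promoters. In the other direction, 6 of 13 clustered PCDHA genes (PCDHA2 to PCDHA7) and 6 of 56 cytochrome P450 genes, among them CYP19A1, which encodes aromatase, had peaks in DU-145 only. Of 508 zinc finger genes with a ZNF symbol, 24 were in BT-549 only and 7 in DU-145 only. Their 440 tested promoters went the other way, with 76 higher in DU-145 and 37 in BT-549. Over all 19962 protein-coding genes, 2.30% had such peaks in BT-549 only and 2.23% in DU-145 only. Clustered genes share regions, so members are not independent.

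In BT-549 only 1467 of the 11381 regions particular to its vehicle libraries had a peak in all 3 BT-549 DOX libraries, whereas in DU-145 13385 of 17159 did. The BT-549 DOX libraries were the shallowest of the series, and the part of depth in this was not tested.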
